A study of Homo sapiens with 4 samples.

Results

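The polyamine genes described here are 10 of the 60880 genes listed in the count table, chosen by symbol as enzymes and regulators of polyamine synthesis and breakdown (ODC1, AMD1, SRM, SMS, SAT1, SMOX, PAOX, OAZ1, AZIN1 and MTAP) and found there by their Ensembl identifiers. All 10 had enough reads to be tested. Polyamines are small positively charged molecules that bind RNA and DNA and are needed for growth. ODC1 makes putrescine from ornithine, AMD1 turns S-adenosylmethionine into the donor of aminopropyl groups, and SRM and SMS use that donor to build spermidine and then spermine. SAT1, SMOX and PAOX take the products apart again, OAZ1 and AZIN1 act on the ODC1 protein in opposite directions, and MTAP recycles the spent donor to methionine and adenine. The prostate is known for a very high flux through this pathway, since its luminal cells secrete polyamines into the seminal fluid.

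RNA-Seq counts compared LNCaP95, an androgen-independent relative of the human prostate cancer line LNCaP with an intact UGT2B17 gene, with LN95(KO), its CRISPR knockout of UGT2B17, whose product attaches glucuronic acid to androgens. Each group had 2 libraries of poly(A)-selected RNA, numbered 1 and 2 for LNCaP95 and 3 and 4 for LN95(KO), from untreated cells kept in RPMI medium with charcoal-stripped serum, which is low in steroid hormones. How many clones make up LN95(KO) is not stated, and nothing in the labels says whether the libraries of a group came from separate cultures. The p-values therefore weigh a group difference only against the spread between these libraries, estimated with information shared across genes. That spread may be technical. The comparison asked which transcripts differed once UGT2B17 was lost.

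Depth ranged from 17330338 to 18813193 gene reads, and 15626 genes entered the edgeR quasi-likelihood fit. UGT2B17 itself had 2788 and 2748 reads in LNCaP95 against 21 and 20 in LN95(KO), so the libraries matched their labels. The 4 prostate luminal markers reported here (KLK3, HOXB13, KRT8 and KRT18) all had at least 10 reads in every library, with a summed level of 1309.21 and 1315.68 CPM (read counts relative to library size, scaled by the TMM factors of edgeR) in LNCaP95 and 1746.03 and 1692.89 CPM in LN95(KO). Within that sum KLK3, which androgen induces, had 579 and 641 reads in LNCaP95 and 7488 and 7159 in LN95(KO), and without it the sum was 1277.88 and 1280.73 CPM against 1323.6 and 1301.17 CPM. HOXB13 was lower in LN95(KO) (log2 fold change -0.49, adjusted p = 7.67e-08 in edgeR), KRT8 was higher (0.39, adjusted p = 9.69e-07), and KRT18 did not pass (0.07, adjusted p = 0.369). Of 9 markers of basal, stromal, immune or neuroendocrine cells, only COL1A1 reached 10 reads in every library, and DCN and CHGA were at 0 throughout. Their summed level was 29.61 to 30.14 CPM in LNCaP95 and 33.27 to 35.48 CPM in LN95(KO), nearly all of it COL1A1, which was slightly higher in LN95(KO) (log2 fold change 0.22, adjusted p = 0.0227). At much lower counts, KRT14 had 1 and 2 reads in LNCaP95 against 17 and 20 in LN95(KO), and LUM had 24 and 19 against 0 and 0, and both passed the 2-fold rule. Reads that did not align made up 3.849% and 3.958% of entries in LNCaP95 against 8.05% and 7.707% in LN95(KO), and the part of this share or of the marker levels in the results was not tested.

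The data showed higher transcript levels in LN95(KO) for AMD1, SRM and SMS, which carry synthesis forward after putrescine. MTAP, which salvages the by-product, was also higher, and ODC1 had no detectable difference. SRM was 1.72-fold higher, MTAP 1.56-fold, AMD1 1.28-fold and SMS 1.27-fold, each past an adjusted p of 0.05 and each with both LN95(KO) libraries above both LNCaP95 libraries. SAT1 and AZIN1 were higher by smaller amounts, 1.19-fold and 1.11-fold. Without overlap between the groups, 6 of the 10 genes were higher and 3 lower. Of 39 tested genes around the pathway, 15 were higher and 15 lower without overlap. The share over all tested genes was not counted, so these counts cannot be read as a trait of either list. Of the 10 genes, 6 were higher past the adjusted p and 0 lower, beside 29.8% of all tested genes that were higher by the same rule and 30.1% that were lower. The study's rule also asks for more than a 2-fold change, and by it edgeR called 0 of the 10 in either direction, against 8.86% of all tested genes called higher and 9.13% called lower. DESeq2 also called 0 of the 10. At an unadjusted p under 0.05, 6 of the 10 were higher and 1, SMOX, was lower, and 0 of these were past 2-fold. The share of all tested genes at that threshold was not counted, so these counts have no background beside them. The median log2 fold change of the 10 genes was 0.20, beside -0.01 over all genes tested. The 10 genes and those around the pathway were chosen with earlier results of these data known. Their comparisons with all tested genes are therefore descriptions only.

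**Figure D1:**
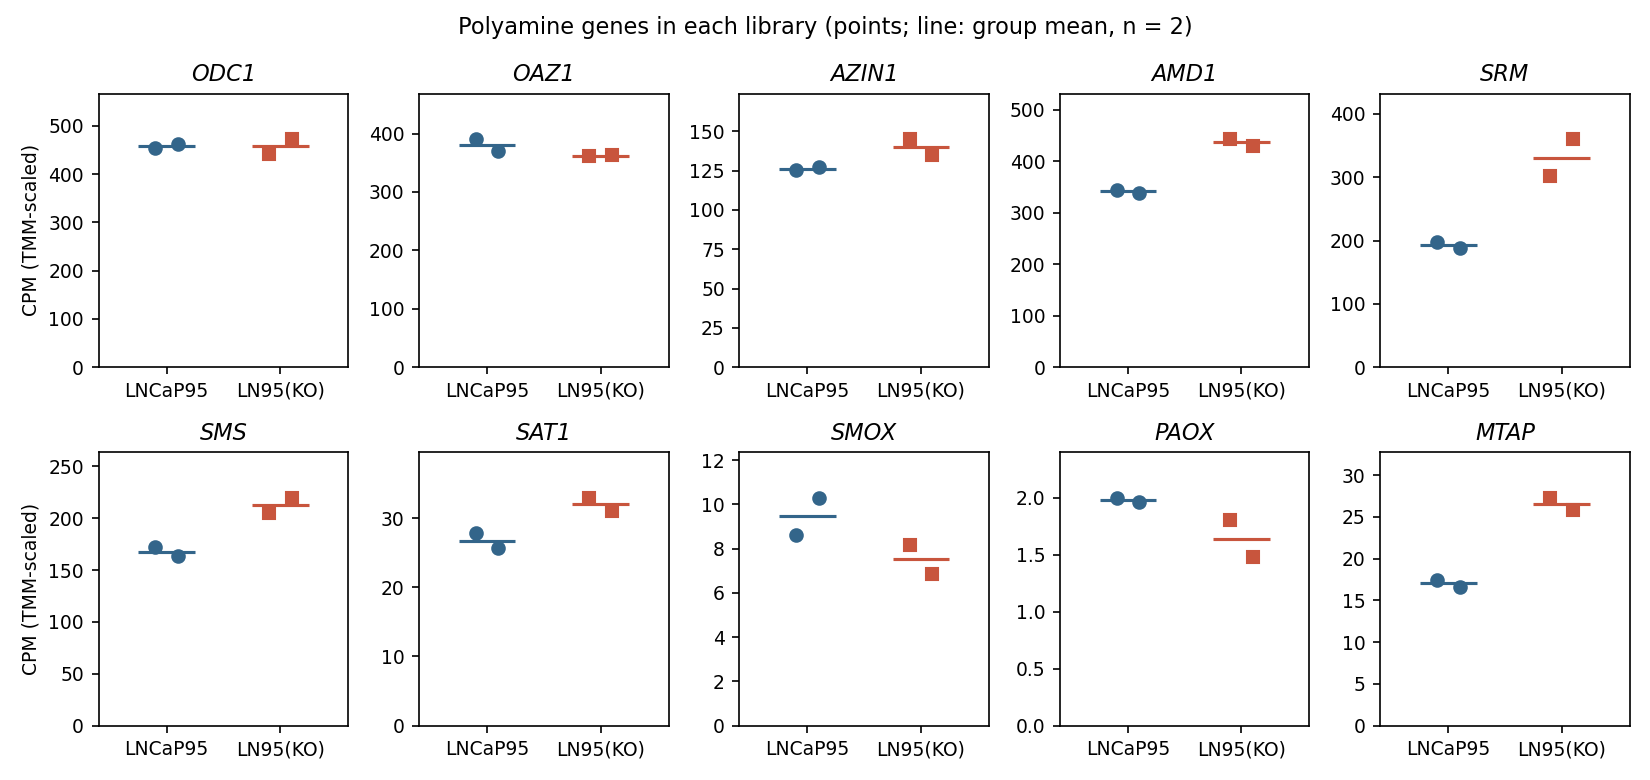
CPM (counts divided by TMM-scaled library size) of the 10 polyamine genes, 1 panel per gene and 1 point per library, with a line at each group mean (n = 2). The vertical axes start at 0 and differ between panels. Both LN95(KO) libraries lie above both LNCaP95 libraries for AZIN1, AMD1, SRM, SMS, SAT1 and MTAP, the groups overlap for ODC1, and LN95(KO) lies lower for OAZ1, SMOX and PAOX.

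Sequence just upstream of the transcription start is shown for the 3 synthesis enzymes that rose and for ODC1, because SRM and ODC1 carry the E-box CACGTG, the motif bound by MYC and its relatives, and no such letters were found in the windows of SMS and AMD1. Capitals mark the E-box. The stretches come from the RefSeq promoter windows on GRCh38.p14 and read 5′ to 3′ along the gene. They cover the 250 bases before the start, except for ODC1, where the stretch runs through the first intron of the longer transcripts to 20 bases past an internal start.
SRM, chr1:11060019-11060268, minus strand: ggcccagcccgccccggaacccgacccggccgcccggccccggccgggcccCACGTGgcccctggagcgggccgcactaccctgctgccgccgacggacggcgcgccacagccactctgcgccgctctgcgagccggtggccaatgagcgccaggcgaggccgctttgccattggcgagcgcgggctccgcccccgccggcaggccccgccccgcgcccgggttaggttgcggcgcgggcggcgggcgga
SMS, chrX:21940459-21940708, plus strand: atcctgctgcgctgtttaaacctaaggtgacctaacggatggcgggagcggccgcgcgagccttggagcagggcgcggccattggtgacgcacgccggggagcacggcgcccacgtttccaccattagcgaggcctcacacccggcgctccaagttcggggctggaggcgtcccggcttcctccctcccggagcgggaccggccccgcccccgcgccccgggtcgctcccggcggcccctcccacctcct
AMD1, chr6:110874535-110874784, plus strand: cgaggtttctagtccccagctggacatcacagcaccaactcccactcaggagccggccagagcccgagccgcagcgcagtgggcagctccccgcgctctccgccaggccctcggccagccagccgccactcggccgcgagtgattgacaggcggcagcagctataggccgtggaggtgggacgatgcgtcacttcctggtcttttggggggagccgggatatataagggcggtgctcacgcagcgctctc
ODC1, chr2:10447993-10448120, minus strand: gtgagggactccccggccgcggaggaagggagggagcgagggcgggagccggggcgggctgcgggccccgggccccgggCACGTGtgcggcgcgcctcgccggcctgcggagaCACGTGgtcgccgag

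The SRM E-box begins 199 bases before the start. ODC1 holds a pair of E-boxes, one beginning 29 bases before its internal start and the other at base 6 after it, and the window of its upstream start holds none. Both strands were searched from 250 bases before to 50 bases after each start, and 7 of the 10 genes had such a window (those of SRM, SMS, AMD1, ODC1, OAZ1, SAT1 and MTAP). Of these 7 genes only SRM and ODC1 had an E-box, and none was found for SMS, AMD1, OAZ1, SAT1 or MTAP. AMD1 has other windows, starting at 110814367 and 110874534, that were searched but not printed. The E-box stood in 7.256% of all 35116 windows of this length. The letters TATAAA were found at base 7 after the start in OAZ1 and 215 bases before the start in MTAP. They stood in 11.53% of all windows. Only this exact spelling was searched, so similar letters, such as tatataa near the end of the printed AMD1 stretch, were not counted. A full androgen response element, spelled as AGAACA and TGTTCT with 3 bases between them, was found in no window of these genes and in 1 window of all. The windows of these genes were 65.33% to 82% G and C, SRM the highest, except that of MTAP at 53%, beside a median of 58.7% over all windows. A match describes these letters and does not show binding.

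ODC1, the first enzyme of the pathway (ENSG00000115758.12_4, chromosome 2 from 10580094 to 10588453 on GRCh37, minus strand), had 8397 and 8484 reads in LNCaP95 against 7845 and 8636 reads in LN95(KO). The level was 458 ± 5.83 CPM in LNCaP95 and 458 ± 21.2 CPM in LN95(KO) (SD, n = 2). The lower and the higher LN95(KO) library lay on either side of both LNCaP95 libraries, so the groups overlapped. The log2 fold change was -0.00 (SE 0.05, adjusted p = 0.965 in edgeR), with a 95% interval for the fold from 0.930 to 1.07. None of the ODC1 exon bases was shared with another gene.

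OAZ1 encodes antizyme, the protein that binds ODC1 and sends it to the proteasome, and it is made through a ribosomal frameshift that polyamines promote. Its gene lies on chromosome 19 from 2269508 to 2273489 (plus strand). OAZ1 had 7216 and 6784 reads in LNCaP95 against 6395 and 6641 in LN95(KO), or 380 ± 14.5 CPM against 362 ± 1.84 CPM. Both LN95(KO) libraries lay below both LNCaP95 libraries in CPM, but the difference did not pass the test (log2 fold change -0.07, SE 0.05, adjusted p = 0.215 in edgeR). Its neighbour JSRP1, on the opposite strand, shares part of the 6.87% of OAZ1 exon bases that overlap other genes, and counting without strand drops reads there.

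AZIN1 encodes the antizyme inhibitor, a relative of ODC1 without enzyme activity that draws antizyme away from it. AZIN1 (chromosome 8 from 103838339 to 103906092, minus strand) had 2314 and 2340 reads in LNCaP95 against 2572 and 2466 in LN95(KO). Its level rose from 126 ± 1.68 to 140 ± 7.19 CPM. The difference was 0.15 on the log2 scale (SE 0.05, adjusted p = 0.0241 in edgeR). The groups did not overlap, but AZIN1 did not pass the adjusted p in 5 of 9 alternatives. DESeq2 gave an adjusted p of 0.109 and upper quartile scaling 0.0874, and the adjusted p was 0.167 without LNCaP95 replicate 1, 0.0917 without LNCaP95 replicate 2 and 0.105 without LN95(KO) replicate 3.

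Set against ODC1 in the same library, with both levels taken per length of merged exons, OAZ1 stood at 0.827 and 0.770 in LNCaP95, against 0.785 and 0.740 in LN95(KO). These values overlapped between the groups. AZIN1 stood at 0.149 and 0.149 of the ODC1 level in LNCaP95, against 0.177 and 0.154 in LN95(KO). Both knockout ratios were higher, and replicate 4 was close to the LNCaP95 values. The antizyme transcript thus exceeded the inhibitor transcript per length in every library.

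AMD1 encodes S-adenosylmethionine decarboxylase, the second controlled step, whose product is used for spermidine and spermine. The AMD1 gene spans 111195973 to 111220082 on chromosome 6 (plus strand), and sequence upstream of an annotated start is given above. AMD1 had 6362 and 6209 reads in LNCaP95 against 7845 and 7861 in LN95(KO). Its level rose from 341 ± 4.03 to 436 ± 8.80 CPM. Replicates differed far less than the groups, at 0.35 on the log2 scale (SE 0.05, adjusted p = 3.94e-06 in edgeR) and a 95% interval from 0.26 to 0.45. Per length, AMD1 stood at 0.246 and 0.237 of the ODC1 level in LNCaP95, against 0.324 and 0.295 in LN95(KO), with no overlap.

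SRM, spermidine synthase, showed the largest rise of the 10 genes. SRM (ENSG00000116649.9_3, chromosome 1 from 11114641 to 11120077, minus strand) had 3662 and 3441 reads in LNCaP95 against 5340 and 6583 in LN95(KO). These are 198.14 and 187.61 CPM against 301.25 and 360.20 CPM. Both knockout libraries were well above both LNCaP95 libraries, and they also differed from each other. The log2 fold change was 0.78 (SE 0.07, adjusted p = 1.21e-06 in edgeR), and the 95% interval for the fold, 1.54 to 1.91, stayed under 2. Between the knockout libraries, replicate 4 exceeded replicate 3 by 0.26 on the log2 scale, a gap larger than that of 97.9% of the 3811 tested genes with a mean of at least 1000 reads. Without LN95(KO) replicate 3 the log2 fold change of SRM was 0.91, and without replicate 4 it was 0.65, both past the adjusted p. None of the SRM exon bases was shared with another gene.

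SMS, spermine synthase, adds the next aminopropyl group to spermidine and lies on the X chromosome from 21958827 to 22012955 (plus strand). SMS had 3186 and 2994 reads in LNCaP95 against 3637 and 4018 in LN95(KO). Its level rose from 168 ± 6.46 to 213 ± 10.4 CPM, which is 0.34 on the log2 scale (SE 0.05, adjusted p = 2.59e-05 in edgeR). The groups did not overlap. The SRM transcript rose more than the SMS transcript, and their ratio per length went from 1.29 in each LNCaP95 library to 1.65 and 1.84 in LN95(KO). That ratio has no test of its own.

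MTAP removes methylthioadenosine, the by-product of both synthase reactions, and starts the return of its sulfur to methionine. MTAP (chromosome 9 from 21802635 to 21937650, plus strand) had 323 and 305 reads in LNCaP95 against 484 and 472 in LN95(KO). Its level rose from 17.1 ± 0.599 to 26.6 ± 1.05 CPM. The groups were clearly apart, at 0.64 on the log2 scale (SE 0.09, adjusted p = 7.95e-06 in edgeR) and a fold of 1.56 (95% interval 1.37 to 1.77). MTAP is often deleted in tumors together with its neighbour CDKN2A, and reads were present in all 4 libraries. Other genes share 9.64% of its exon bases. Per length, MTAP stood at 0.0356 and 0.0345 of AMD1 in LNCaP95, against 0.0433 and 0.0421 in LN95(KO).

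**Figure D2:**
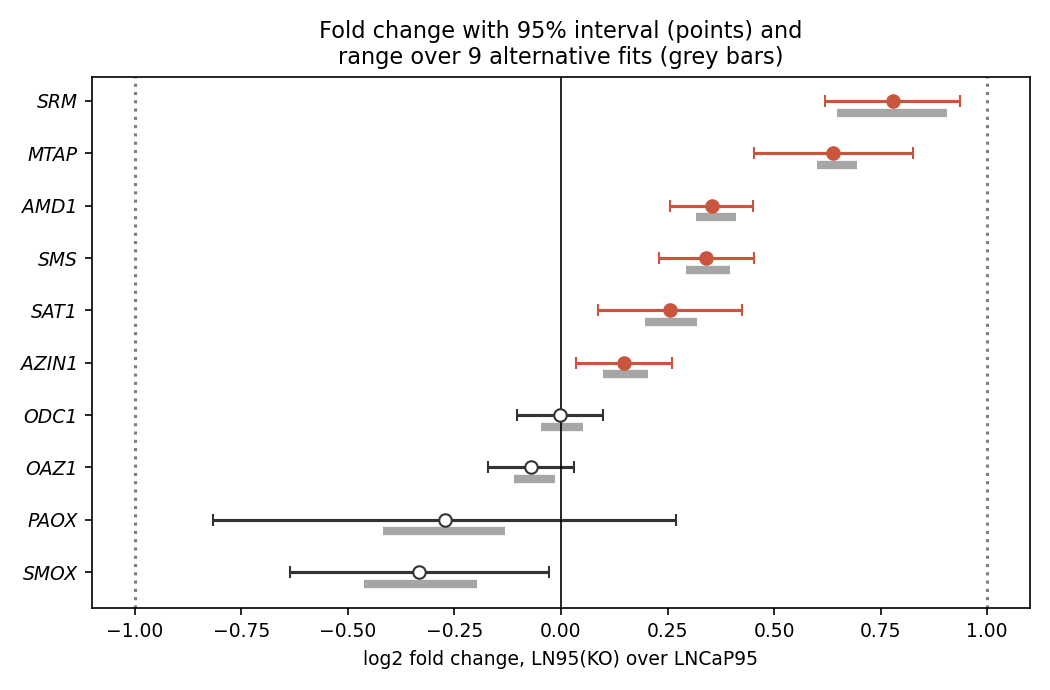
Log2 fold change, LN95(KO) over LNCaP95, of each polyamine gene from edgeR with its 95% interval (points and bars, n = 2 per group), and the range of the estimate over 9 other fits (grey bars). Filled points passed an adjusted p of 0.05, and dotted lines mark 2-fold. SRM lies farthest to the right at 0.78, no interval reaches 2-fold on the higher side, and ODC1 lies close to zero.

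Of the 3 catabolic enzymes, only SAT1 passed the adjusted p in edgeR. SAT1, the acetyltransferase that marks spermidine and spermine for export or oxidation, lies on the X chromosome from 23801290 to 23804327 (plus strand). SAT1 had 515 and 470 reads in LNCaP95 against 584 and 566 in LN95(KO), or 26.7 ± 1.58 against 32.0 ± 1.40 CPM. The groups did not overlap, and the log2 fold change of 0.26 (SE 0.08) passed in edgeR (adjusted p = 0.0107). SAT1 passed the adjusted p in 6 of 9 alternatives, and not in DESeq2 (adjusted p = 0.128). With a library left out, its log2 fold change ranged from 0.20 to 0.32.

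SMOX, the spermine oxidase that releases hydrogen peroxide, lies on chromosome 20 from 4101627 to 4168394 (plus strand). SMOX had 159 and 189 reads in LNCaP95 against 145 and 125 in LN95(KO), or 9.45 ± 1.204 against 7.51 ± 0.948 CPM. The groups did not overlap, but the nearest libraries of the groups were closer in CPM than the replicates of either group. The log2 fold change was -0.33 (SE 0.14) and the adjusted p was 0.0553 in edgeR, just short of the threshold. It passed with upper quartile scaling (0.0344), without the low-count filter (0.0496), without LNCaP95 replicate 1 (0.0291) and without LN95(KO) replicate 3 (0.0413).

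PAOX, the peroxisomal oxidase of acetylated polyamines (chromosome 10 from 135192765 to 135205198, plus strand), had 37 and 36 reads in LNCaP95 against 32 and 27 in LN95(KO). The difference of -0.27 on the log2 scale (SE 0.26, adjusted p = 0.377 in edgeR) was not detectable at this depth, since its 95% interval ran from -0.82 to 0.27. Other genes share 61.0% of PAOX exon bases, so reads there were left uncounted. The ratio of SMOX to PAOX per length was 3.28 and 4.01 in LNCaP95, against 3.46 and 3.54 in LN95(KO), which overlap. The ratio of SAT1 to ODC1 was 0.0817 and 0.0738 in LNCaP95, against 0.0992 and 0.0873 in LN95(KO), higher in both knockout libraries.

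Compared per length (CPM per kilobase of merged exons), ODC1 was highest in LNCaP95 at 137.38 and 139.88, followed by OAZ1, SRM and SMS, which stood between 76.638 and 113.63. AMD1 followed at 33.771 and 33.212, AZIN1 at 20.424 and 20.813, and SAT1 at 11.227 and 10.325. SMOX, MTAP and PAOX came last, and PAOX was lowest at 0.88975 and 0.87236. No neighbours in this order overlapped over the libraries of LNCaP95.

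In LN95(KO) the order was the same except at the top, where SRM, at 159.06 and 190.18, passed both OAZ1 and ODC1, the latter at 133.83 and 142.89. Neighbours again did not overlap. With the longest transcript as the length, SRM already stood above OAZ1 in LNCaP95, and MTAP stood above SMOX in LN95(KO), so the order of those pairs depends on the gene model. Among the 15537 tested genes with a length, ODC1 exceeded 98.9% in LNCaP95 and 98.7% in LN95(KO). SRM exceeded 98.2% and 99.1%, while PAOX exceeded 23.4% and 21.3%. AMD1 was the lowest of the 4 synthesis enzymes at 92.7% and 94.1%, and SMOX exceeded 47.5% and 42.4%. In bulk RNA, fewer cells that express a gene and less of its RNA per cell cannot be told apart.

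**Figure D3:**
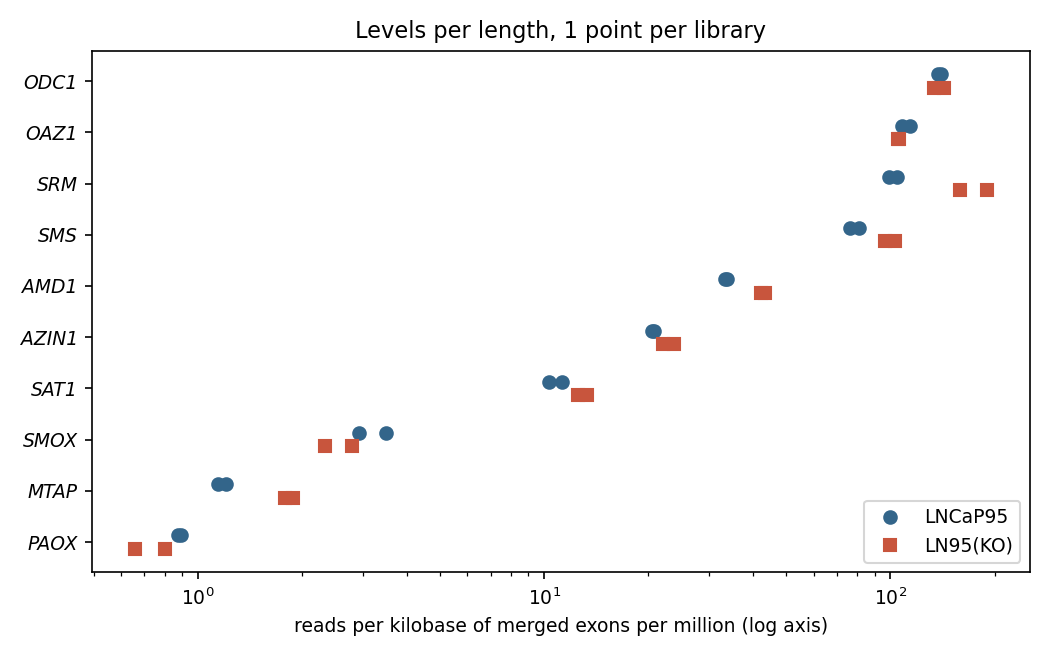
Level of each polyamine gene as CPM per kilobase of merged exons, on a log axis, with 1 point per library (circles LNCaP95, squares LN95(KO)). ODC1 leads in LNCaP95 at 137.38 and 139.88, SRM leads in LN95(KO) at 159.06 and 190.18, and PAOX is lowest in both groups.

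The 10 genes lie on 9 chromosomes, and the tested genes within 1 Mb of each were counted as neighbours, to be set beside the 29.8% higher and 30.1% lower of all tested genes. Around SRM, 12 of 25 neighbours were higher past the adjusted p and 4 were lower, with a median log2 fold change of 0.15. Around ODC1, with no detectable difference, 7 of 20 neighbours were higher and 2 lower. Both SMS neighbours were lower, with a median of -0.62, while SMS rose. Around SAT1, which also rose, 7 of 13 neighbours were lower and 2 higher. Around MTAP, 2 of 4 were higher and 1 was lower. Around AMD1, 4 of 13 were higher and 3 lower, with a median of 0.04. The counts were 12 of 57 higher and 17 lower around OAZ1, and 2 of 11 and 2 around AZIN1. They were 4 of 22 higher and 7 lower around SMOX, and 4 of 18 and 5 around PAOX. Pseudogenes named after the 10 genes, 11 symbols in all, held 5 reads over all 4 libraries together.

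The genes around the pathway were read from a list ordered by role, of which 44 were matched in the table and 39 were tested. In edgeR 12 of the 39 were higher past the adjusted p and 14 were lower, with a median log2 fold change of -0.03. By the 2-fold rule 1 was called higher (GNMT) and 3 lower (AZIN2, SATL1 and ASS1), beside 8.86% and 9.13% of all tested genes. The shares over all tested genes to set beside the adjusted p counts of the list and of each role are 29.8% higher and 30.1% lower, the roles hold 3 to 10 tested genes each, and differences between roles were not tested.

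Of the other antizymes and inhibitors, AZIN2, the tissue-restricted antizyme inhibitor, fell from 88 and 90 reads in LNCaP95 to 33 and 36 in LN95(KO), or -1.33 on the log2 scale (SE 0.20, adjusted p = 2.10e-05 in edgeR). AZIN1 and AZIN2 thus differed in direction, with AZIN2 the far less abundant in reads. OAZ2 did not pass (log2 fold change 0.03, adjusted p = 0.646; this gene and those below described as further examples were chosen after their values were seen). SATL1, a relative of SAT1 by sequence, had 18 and 14 reads in LNCaP95 against 0 and 1 in LN95(KO). Its pooled scaled count was 31.3 times higher in LNCaP95, with an exact counting interval from 5.23 to 1274.

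In the transport group 5 of 6 tested genes were lower past the adjusted p and 0 were higher (30.1% and 29.8% of all tested genes), with a median of -0.21. GPC1, a glypican that takes part in polyamine uptake, fell from 924 and 865 reads to 494 and 533 (log2 fold change -0.77, SE 0.07, adjusted p = 6.85e-08 in edgeR). A further example was ATP13A2, the lysosomal polyamine exporter, at -0.31. The remaining genes of the 5 stood between -0.25 and -0.12.

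Genes that supply arginine and ornithine were split, with 4 of 10 higher and 5 lower (29.8% and 30.1% of all tested genes). ASS1, which joins citrulline and aspartate on the way to arginine, had 6694 and 6568 reads in LNCaP95 against 1638 and 1503 in LN95(KO). Its level fell from 360 to 87.3 CPM (log2 fold change -2.04, SE 0.06, adjusted p = 5.77e-15 in edgeR), the largest fall of the list among genes with over 100 reads in each LNCaP95 library. As further examples, the arginine carrier SLC7A1 stood at -0.40 and its relative SLC7A2 at 0.79. ARG2, the arginase that yields ornithine, stood at -0.94, with 39.6% of its exon bases shared with VTI1B on the opposite strand.

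The methionine cycle had 3 of 8 genes higher and 1 lower (29.8% and 30.1% of all tested genes). AHCY, which clears S-adenosylhomocysteine, rose from 3578 and 3619 reads to 6827 and 7071, or 0.98 on the log2 scale (SE 0.05, adjusted p = 8.32e-12 in edgeR) and a fold of 1.98. GNMT, which spends S-adenosylmethionine on glycine, rose from 56 and 46 reads to 155 and 138 (log2 fold change 1.55, SE 0.17, adjusted p = 6.27e-07). A further example, MAT2A, which makes S-adenosylmethionine, the substrate of AMD1, was lower by a small amount (-0.16).

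Of the 6 salvage genes that act after MTAP, 4 were higher past the adjusted p and 1 was lower (29.8% and 30.1% of all tested genes), with a median of 0.40. APRT, which turns the adenine released by MTAP back into AMP, rose from 1739 and 1742 reads to 3151 and 3547 (log2 fold change 0.98, SE 0.06, adjusted p = 8.28e-11 in edgeR). The further examples GOT1, ADI1 and ENOPH1 stood at 0.48, 0.44 and 0.35, and APIP, which acts between MRI1 and ENOPH1, stood at -0.39. In the hypusine group EIF5A, the translation factor that receives a butylamine group from spermidine, rose from 6178 and 6007 reads to 7039 and 8475 (log2 fold change 0.38, SE 0.06, adjusted p = 4.43e-05). As for SRM, LN95(KO) replicate 4 had the higher count. Other genes share 8.98% of EIF5A exon bases.

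**Figure D4:**
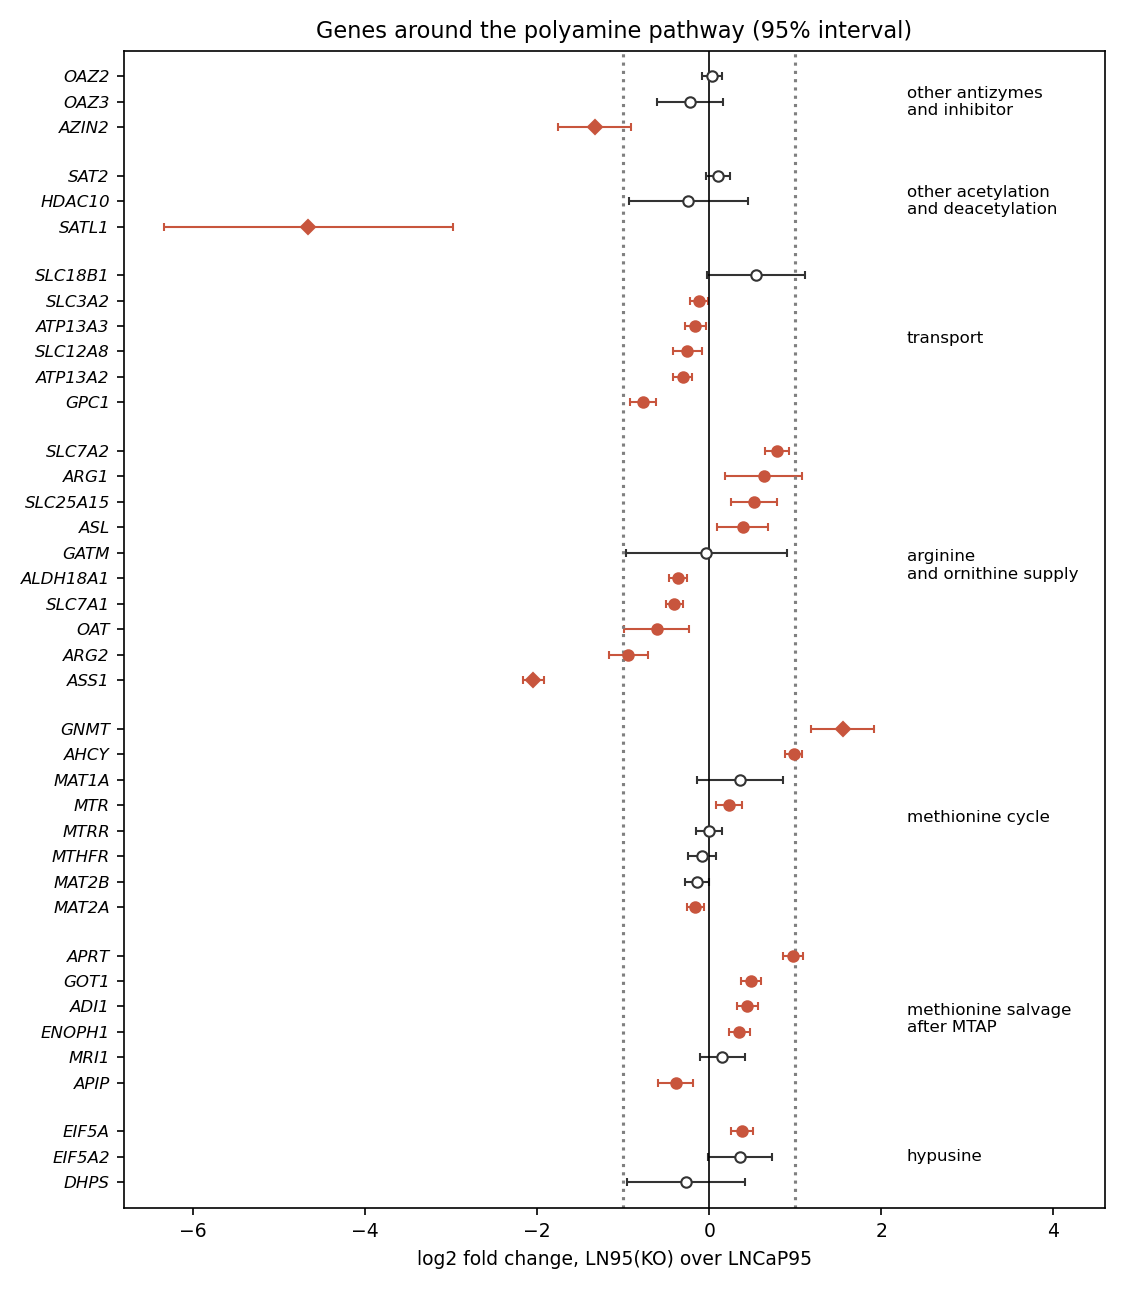
Log2 fold change, LN95(KO) over LNCaP95, with its 95% interval for the 39 tested genes around the polyamine pathway, grouped by role. Filled points passed an adjusted p of 0.05, diamonds also passed 2-fold (dotted lines), and open circles did not pass. AZIN2, SATL1 and ASS1 lie beyond 2-fold on the lower side and GNMT on the higher side.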

How the data were processed

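RNA-Seq was analysed in 4 libraries grouped by their labels. The files deposited by the authors hold raw gene counts. Per the methods and labels, hisat2 (version 2.1.0) placed the reads on hg19, and htseq counted them on a GENCODE annotation with strand ignored. htseq drops reads that fall on more than 1 gene, so overlapping genes lose reads. The 5 summary lines were kept out of library sizes. Symbols matched 59899 of 60880 identifiers, and gene models came from a later GENCODE release on GRCh37.

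Counts were tested with edgeR (version 4.0.16, R version 4.3.3) by its quasi-likelihood test, with robust estimation, TMM factors, no covariate and filterByExpr (minimum count 10, minimum total 15), with Benjamini-Hochberg adjustment over 15626 genes. Calls required an adjusted p under 0.05 and a fold change over 2, the thresholds of the study. Its tool, DESeq2 (here version 1.42.0), was an alternative, beside other scalings, no filter, glmTreat and leaving out each library. The fit was also run on simulated counts that had the same dispersion for every gene and known changes past 2-fold. That run does not bear on the changes under 2-fold described here. With 2 libraries per group no permutation test can reach 0.05, so the p-values rest on the dispersion shared across genes. Intervals on fold changes are 95% intervals of the edgeR fit. The floor for a count of 0 was taken as 3 counts, or 0.162 to 0.169 CPM. That limit and the counting interval of SATL1 cover counting error only.

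Named genes are the 10 polyamine genes, UGT2B17, and, in the list by role, the called genes and the gene with the smallest adjusted p in each role. Marker genes and the further examples lie outside this rule, and the examples were chosen after their values were seen. The members and lists were chosen with earlier results of these data known. Promoter windows are RefSeq windows on GRCh38.p14, a build other than that of the counts, and were used for sequence only. Some luminal marker genes are not reported here.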

Additional observations from a re-analysis of the deposited data

Results flagged for a closer look

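Reads that did not align, a line of the count files outside the gene counts, made up at least 7.707% of entries in LN95(KO), above the 3.849% and 3.958% seen in LNCaP95. The lines do not say what these reads were, and their part in the values of the polyamine genes was not tested.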

How the results depend on the processing

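No paired analysis was possible because LNCaP95 carries replicate numbers 1 and 2 and LN95(KO) carries 3 and 4. AMD1, SRM, SMS and MTAP kept their direction and an adjusted p under 0.05 in all 9 alternatives, and OAZ1 and PAOX passed in none. ODC1 changed sign with library totals (0.053 on the log2 scale) and, with one library left out, ranged from -0.047 to 0.048, always short of the threshold. AZIN1 passed in 4 of 9 alternatives, SAT1 in 6 and SMOX in 4. The count of polyamine genes past the adjusted p was 4 in DESeq2, all higher. Without the low-count filter it was 7, of which 6 were higher and 1, SMOX, was lower. With upper quartile scaling it was 6, of which 5 were higher and SMOX was lower. The share of all tested genes past the adjusted p in these fits was not counted. With all libraries kept, 0 were called by the 2-fold rule in each alternative, glmTreat included. The same order of levels held for 8 of 10 genes with the longest transcript as length. Wider genes called numbered 3 with glmTreat, 6 with library totals and 4 to 6 with one library left out, against 4. No scaling moved the median of all genes by 0.1 on the log2 scale. A library left out leaves a lone sample in its group, which is assumed to vary like the other group. Depth limits PAOX and SMOX most. The causes of these changes were not tested.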
